A study of Citrullus lanatus with 30 samples.

Results

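Flesh of clnor mutant watermelon (Citrullus lanatus) fruits was compared at 42 and 34 days after pollination (DAP), the last step of the mutant's time course. The comparison held 6 of the study's 30 RNA-seq libraries, 3 of clnor fruits at each age. It covered the 14721 of 22596 genes in the deposited table with at least 1 TPM (an abundance per transcript, already scaled for gene length and for the total of the library) in at least 3 of these 6 libraries. The study also took wild type (WT) fruits and earlier clnor fruits, at 10, 18 and 26 DAP, and the 3 WT libraries at each of 34 and 42 DAP are used here beside the mutant. Every library came from flesh, per the labels, and the labels name no other treatment, no cultivar, and neither the gene nor the allele behind the name clnor, so no targeted gene could be checked. Nor do they say whether the 3 libraries of a group were made from different fruits or plants. The p-values rest on the spread within groups, pooled over all 10 groups of the study, WT included, and that spread could be technical alone.

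Watermelon flesh builds up sugars and carotenoids and loosens its cell walls as it ripens, and most of its cell division ends early in fruit growth. In tomato, NON-RIPENING (NOR) is a NAC transcription factor, and fruits that lack its normal function fail to ripen fully. Plant tissue short of oxygen turns to fermentation, in which alcohol dehydrogenase makes ethanol, and stressed tissue raises heat shock proteins, which act as chaperones.

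The 6 libraries did not fall cleanly by age. Their TPM sums ran from 970727 to 977670 and between 14381 and 14722 genes had 1 TPM or more, and since TPM keeps no depth, the sequencing depth behind each value is unknown. Across genes, on log2(TPM + 1), clnor 34 DAP replicate 2 correlated better with the mean of the 42 DAP libraries (r 0.947) than with the mean of the other 34 DAP libraries (r 0.938). For clnor 42 DAP replicate 2 the 2 values were close, 0.965 with its own age and 0.962 with 34 DAP. The other 4 libraries stood nearer their own age, at 0.954 to 0.977 against 0.937 to 0.94 with the other age. Each r is taken over genes of single libraries, so genes are its points and no p is given. No library was a copy of another, since at most 0.36% of values were identical in any pair.

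Each library was also placed on a line from 0, the mean of the 34 DAP libraries, to 1, the mean of the 42 DAP libraries, with that library left out of the means. At 34 DAP, replicates 1, 2 and 3 lay at 0.293, 0.593 and -0.022. At 42 DAP, replicates 1, 2 and 3 lay at 0.934, 0.512 and 0.916. Both replicates numbered 2 thus sat near the middle, and replicate 3 at 34 DAP sat farthest from the older fruits.

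Some marker groups followed a division that cut across the ages. Phloem markers here were genes described as phloem proteins, sieve element proteins or callose synthases. They summed to 362, 1370 and 437 TPM in the 34 DAP replicates 1 to 3 and to 1190, 420 and 856 TPM in those at 42 DAP. The sum was thus high in replicate 2 at 34 DAP and in replicates 1 and 3 at 42 DAP, and the groups overlapped. Of 19 phloem genes tested, 0 were called by limma (2 had an unadjusted p below 0.05) and their median change was 0.24 on the log2(TPM + 1) scale. Over all genes tested, 2765 of 14721 had an unadjusted p below 0.05 in limma's test. In the fit without clnor 34 DAP replicate 2, 1 of the 19 was called, higher. Of the 35 phloem genes in the table, 7 were listed at 0 in all 6 libraries. Circadian clock genes, which follow the hour of harvest, summed to 661, 1040 and 742 TPM at 34 DAP and to 993, 873 and 1070 TPM at 42 DAP, with 0 of 17 called by limma and 3 at an unadjusted p below 0.05. Without clnor 34 DAP replicate 2, limma called 2 of these 17 genes, both higher, against 5.23% of all genes in that fit. Seed markers summed to 2520 to 3550 TPM over the 6 libraries with 0 of 36 called and 4 at an unadjusted p below 0.05. Xylem markers summed to 74.5 to 97.8 TPM with 0 of 3 called and 1 at an unadjusted p below 0.05, and 1 was called lower without clnor 34 DAP replicate 2. Epidermis and cuticle markers summed to 426 to 603 TPM at 34 DAP and 650 to 775 TPM at 42 DAP, without overlap, with 1 of 42 called higher and 1 lower. The called rise among those markers, GDSL esterase/lipase 5 (Cla97C07G142580), read 0.22, 7.14 and 0.62 TPM at 34 DAP and 10.53, 8.4 and 19.3 TPM at 42 DAP. The called fall, another GDSL esterase/lipase (Cla97C01G023470), read 4.14, 2.39 and 1.96 TPM and then 0.47, 0.38 and 0.37 TPM. Without clnor 34 DAP replicate 2, 1 epidermis and cuticle marker was called higher and 2 lower. The part of these cell types and of harvest time in the results below was not tested, and in bulk tissue fewer cells of a type and less RNA per cell cannot be told apart.

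In limma's test 367 genes passed an adjusted p below 0.05, which is 2.49% of those tested, and they are called here. Of these, 217 rose towards 42 DAP (1.47%) and 150 fell (1.02%), with median changes of 1.32 and -1.09 on the log2(TPM + 1) scale, while the median over all genes tested was 0.0164. The change was at least 2-fold on that scale in 145 of the rises and 85 of the falls. In 356 of the 367 called genes the 3 libraries of one age all lay on one side of the 3 of the other, which held for 3282 of all genes tested (22.3%). Under 2 scalings the split turned to a small majority of falls or to near balance, with 205 rises and 236 falls under upper-quartile scaling and 244 and 240 under quantile normalization.

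Which genes were called rested on single libraries. Without clnor 34 DAP replicate 2 the number called was 770 (5.23% of those tested), of which 310 were among the 367. Without replicate 1 or 3 at 34 DAP it was 217 or 26. Leaving out replicate 1, 2 or 3 at 42 DAP gave 77, 517 or 68. Called with all libraries and in each of these 6 fits were 24 genes, 19 higher and 5 lower, while 17 of the 367 were called in 0 of the 6. Of 64 called genes that the naming rule took, 9 stayed called without replicate 3 at 34 DAP, and 18 and 19 without replicates 1 and 3 at 42 DAP. Without clnor 34 DAP replicate 3, or without clnor 42 DAP replicate 1, no gene list described below had more than 1 called member. Without clnor 42 DAP replicate 3, 6 heat shock and 2 redox genes and at most 1 gene of any other list were called. Without clnor 34 DAP replicate 1, the heat shock, redox, NAC and carotenoid lists had 10, 6, 5 and 3 called and class III peroxidases 0. In a fit of the 2 groups alone 16 genes were called, and the heat shock, NAC, carotenoid, redox and class III peroxidase lists had 0. In a fit of the 5 clnor groups 58 genes were called. There the heat shock, NAC and class III peroxidase lists had 0, and the carotenoid and redox lists 1 each.

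**Figure D1:**
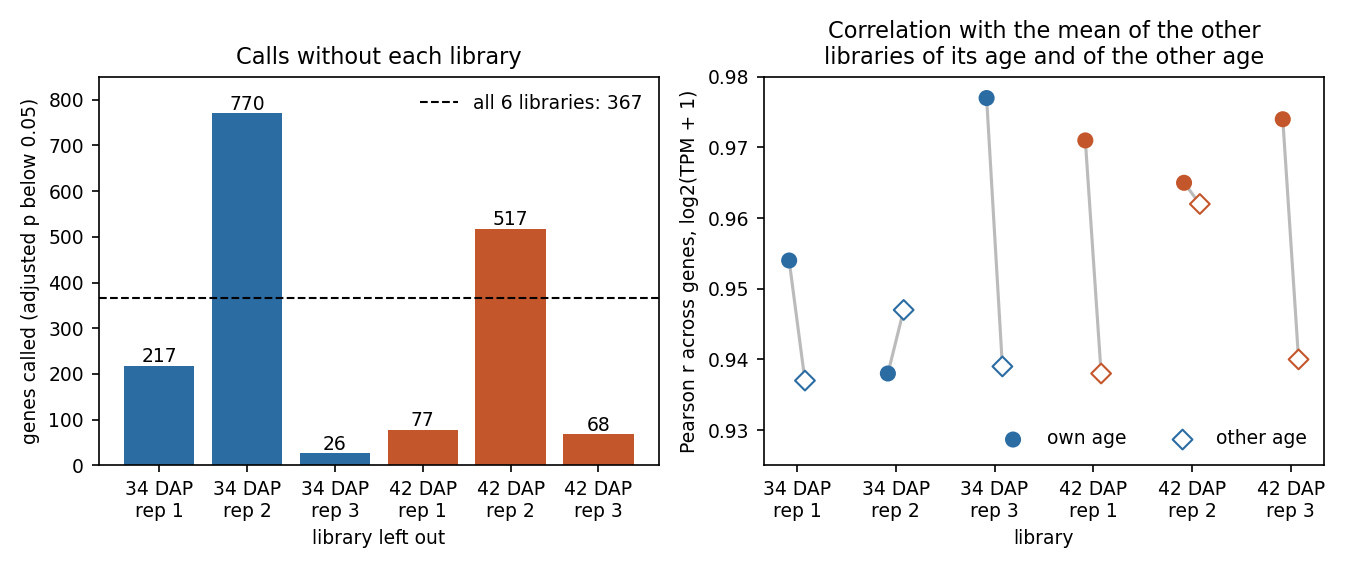
Left, the number of genes called at an adjusted p below 0.05 when the library on the x axis was left out, with a dashed line at the 367 called with all 6 libraries. Right, the Pearson r across genes of each library with the mean of the other libraries of its own age (filled circles) and with the mean of the other age (open diamonds), where clnor 34 DAP replicate 2 is the library whose diamond lies above its circle.

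The largest rises were led by an acyl-[acyl-carrier-protein] desaturase gene (Cla97C08G149220), whose enzyme puts the first double bond into newly made fatty acids in plastids. Its level was 21.05, 8.94 and 9.65 TPM in the 34 DAP libraries and 223.78, 494.9 and 452.04 TPM at 42 DAP. The ages were far apart, and replicate 2 at 34 DAP was the lowest library. The change was 4.8 ± 0.65 (SE, log2(TPM + 1) scale, limma adjusted p 0.000496). LOB domain-containing protein 41-like (Cla97C06G124350), of a plant transcription factor family named for organ boundaries, read 3.88, 0.43 and 1.94 TPM at 34 DAP and 41.14, 56 and 94.8 TPM at 42 DAP. Again every older library was above every younger one (4.48 ± 0.51, limma adjusted p 5.14e-05). A universal stress protein A-like gene (Cla97C02G040830) read 49.21, 9.99 and 49.45 TPM and then 179.68, 546.2 and 452.05 TPM (3.55 ± 0.62, limma adjusted p 0.00469). All 3 of these genes stayed called whichever of the 6 libraries was left out.

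A ribulose bisphosphate carboxylase (Rubisco) small chain gene (Cla97C05G104530), a subunit of the enzyme that fixes carbon dioxide, stood at 159.14, 140.04 and 63.85 TPM at 34 DAP. At 42 DAP it stood at 1091.06, 1100.12 and 766.48 TPM (3.1 ± 0.48, limma adjusted p 0.00161), well clear of the younger libraries. An early light-induced protein gene (Cla97C05G085940), of a family that binds chlorophyll in stressed plastids, read 0.17 to 1.96 TPM at 34 DAP and 48.37, 9.82 and 4.82 TPM at 42 DAP. Replicate 1 at 42 DAP was by far its highest library (3.03 ± 0.54, limma adjusted p 0.00509).

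The other large rises were mostly from low levels. WRKY transcription factor 53 (Cla97C07G141890), named like a senescence regulator of Arabidopsis, read 1.91, 0.88 and 0.93 TPM at 34 DAP and 45.11, 7.18 and 18.05 TPM at 42 DAP (3.14 ± 0.71, limma adjusted p 0.0205). A DUF761 domain gene (Cla97C03G068290) rose by 3.64, a calmodulin binding protein-like gene (Cla97C04G077860) by 3.27, and a gene named after Arabidopsis AT3g10020 (Cla97C10G202550) by 3.06. A gene described as a regulator of Vps4 activity (Cla97C05G093740) rose by 3.03 and an HXXXD-type acyl-transferase (Cla97C05G101700) by 2.93. The libraries of the ages did not overlap in any of these 6, as the naming rule required.

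Among the largest falls, a pectinesterase gene (Cla97C09G163490), of the enzymes that strip methyl groups from pectin, went from 27.25, 7.18 and 19.87 TPM to 0.52, 0.52 and 0.89 TPM. Replicate 2 at 34 DAP was the lowest of its age and still well above the older libraries (-3.37 ± 0.76, limma adjusted p 0.0199). A class III peroxidase gene (Cla97C03G055890), of the secreted enzymes that cross-link wall polymers with hydrogen peroxide, fell from 168.64, 76.49 and 177.22 TPM to 8.93, 21.68 and 18.73 TPM (-3.01 ± 0.65, limma adjusted p 0.0159). A second peroxidase (Cla97C02G045070) fell from 15.2, 3.33 and 7.38 TPM to 1.4, 0.26 and 0.49 TPM. Both peroxidases and the pectinesterase were near 0 in WT at both ages, at means of 0 to 2.16 TPM.

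A gamma aminobutyrate transaminase gene (Cla97C11G222730), which breaks down GABA in mitochondria, fell from 52.64, 34.74 and 35.49 TPM to 3.62, 8.28 and 7.71 TPM (-2.52 ± 0.54, limma adjusted p 0.0145). Acid phosphatase 1-like (Cla97C11G208390) fell from 11.17, 17.01 and 19.14 TPM to 2.07, 1.34 and 1.48 TPM (-2.65 ± 0.51, limma adjusted p 0.00952). Neighbouring receptor kinase genes, receptor kinase 3 (Cla97C02G037020) and S receptor kinase (Cla97C02G037010), fell by 2.57 and 2.16. Their IDs follow each other and their levels moved alike, at 10.18 to 22.07 TPM at 34 DAP and 1.38 to 3.49 TPM at 42 DAP in both, and reads shared between similar copies were not tested.

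The remaining large falls were of genes at 20.27 TPM or less in every library. A YABBY gene (Cla97C06G120470), of a family that sets the lower side of leaves in Arabidopsis, fell from 6.96, 3.07 and 10.34 TPM to 0, 0.57 and 0.37 TPM. A thioredoxin gene (Cla97C05G106810) fell by 2.84, a lysosomal Pro-X carboxypeptidase (Cla97C02G047790) by 2.8, an MP domain gene (Cla97C03G063400) by 2.55, and a lysine-specific histone demethylase 1 homolog (Cla97C11G208130) by 2.41. In the histone demethylase gene replicate 2 was the closest pair across ages, at 6.32 TPM at 34 DAP and 5.16 TPM at 42 DAP.

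**Figure D2:**
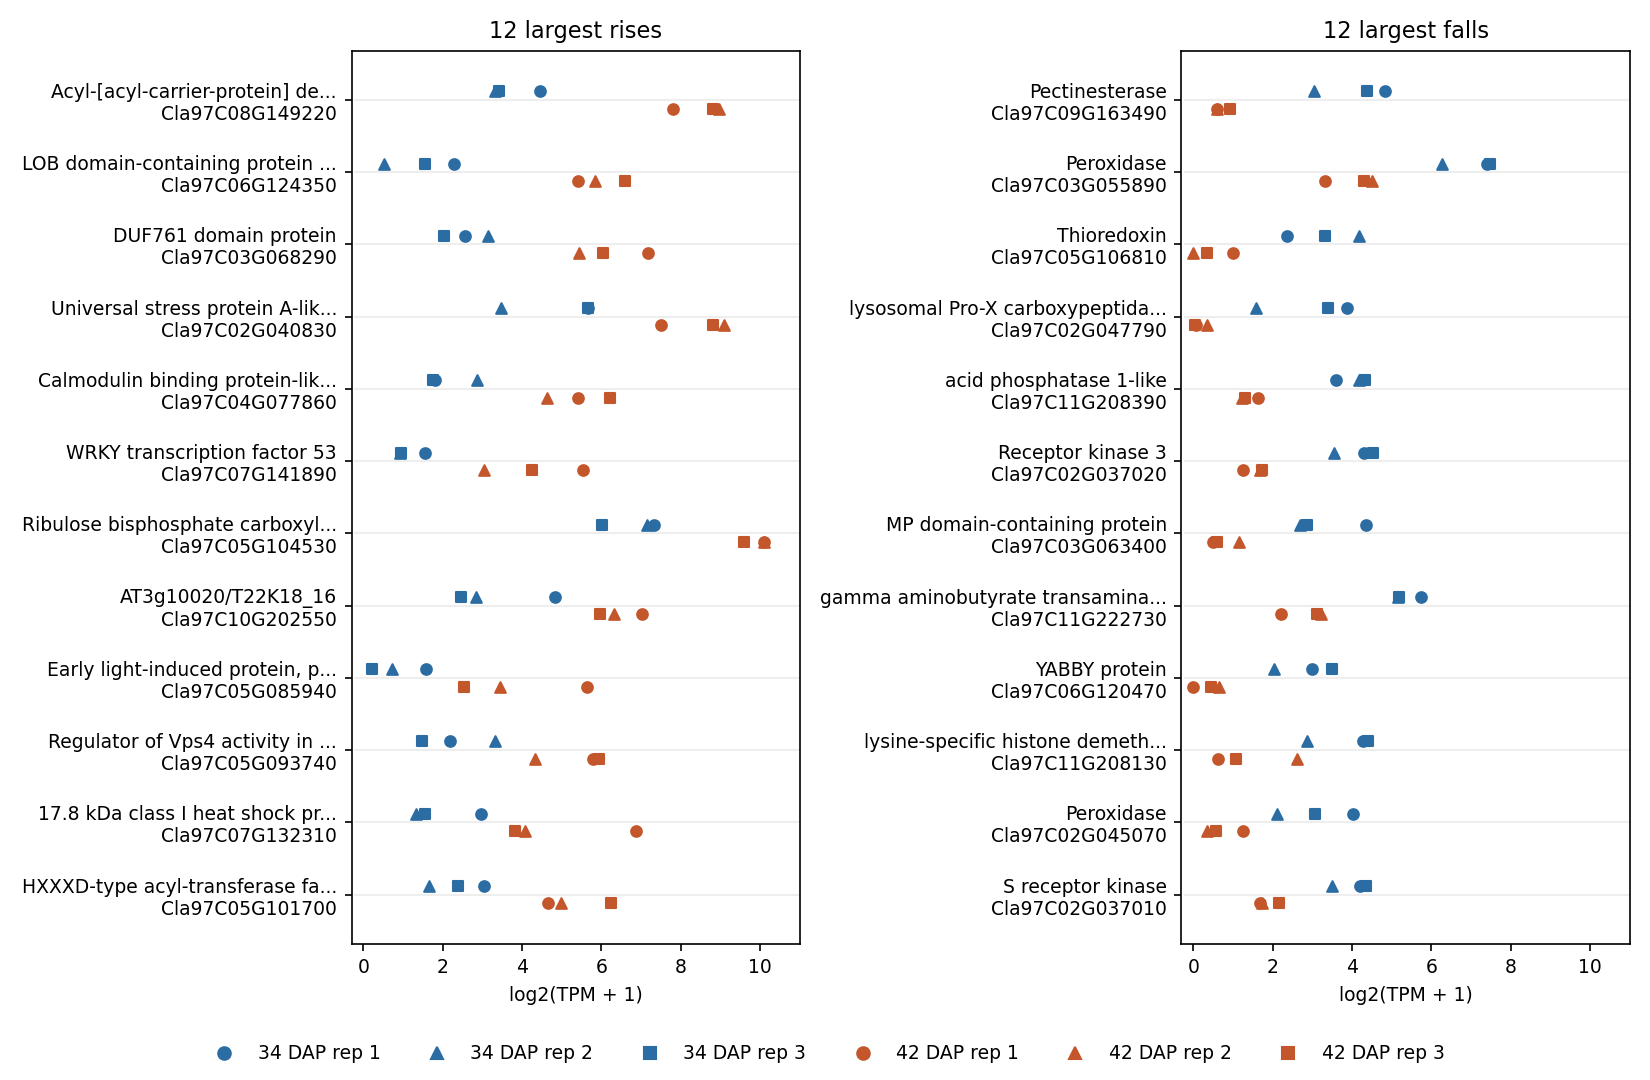
Levels in log2(TPM + 1) of the 12 largest rises and 12 largest falls among described genes that were called, with a mean of at least 5 TPM at one age, with 34 DAP in blue and 42 DAP in orange and 1 marker shape per replicate. The libraries of the ages do not overlap in any row because the choice required it, and in the pectinesterase, peroxidase and receptor kinase rows the 34 DAP triangle (replicate 2) lies nearest the older fruits.

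Beyond the desaturase, LOB domain, universal stress protein, Rubisco and MP domain genes, the 24 genes called in every one of the 6 fits held the following, picked out after their values were seen. Plant cysteine oxidase 2 (Cla97C10G197780), whose Arabidopsis counterparts mark transcription factors for breakdown when oxygen is present, read 58.21, 30.48 and 51.4 TPM at 34 DAP and 139.79, 229.69 and 302.93 TPM at 42 DAP. It changed by 2.22 ± 0.31 (limma adjusted p 0.000593). Aspartate aminotransferase A (Cla97C07G136260), which moves amino groups between aspartate and glutamate, rose from 60.69, 63.14 and 56.84 TPM to 112.48, 89.47 and 143.62 TPM. Cucumber peeling cupredoxin-like (Cla97C06G120520), a copper protein, read 0.73, 0 and 0 TPM and then 3.2, 4.54 and 13.48 TPM. Its WT means were 0 at both ages.

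An undescribed gene (Cla97C02G027770) was listed at 0 in all 3 libraries at 34 DAP and read 5.92, 4.16 and 6.68 TPM at 42 DAP. Another undescribed gene (Cla97C04G078130) did the reverse, with 6.54, 4.46 and 4.73 TPM at 34 DAP and 0 in each library at 42 DAP. Both had means of 0 in WT at 34 and 42 DAP. With so few TPM and depth unknown, no fold is given for either.

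Most gene lists held few called genes, and their shares are set against the 2.49% called over all genes. Heat shock proteins and chaperones, which hold other proteins in their folded shape, had 10 of 205 higher and 0 lower (4.88%, median change 0.16). The called members included both kinds of subunit of the plastid chaperonin, the barrel that folds newly imported proteins. Chaperonin 60 subunit beta 2 (Cla97C03G064830) read 318.24, 339.33 and 245.17 TPM at 34 DAP and 778.9, 501.35 and 583.62 TPM at 42 DAP (1.03, limma adjusted p 0.0334). Subunit alpha 2 (Cla97C02G047410) went from 314.34, 252.38 and 220.99 TPM to 658.66, 486.26 and 501.85 TPM (1.06, limma adjusted p 0.0401). In each, replicate 2 was the lowest of the older libraries, and the ages did not overlap.

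Further chaperones were called too. A 70 kDa heat shock protein gene (Cla97C06G119280) rose from 149.6, 194.43 and 122.23 TPM to 453.36, 251.68 and 347.38 TPM (1.15 ± 0.22, limma adjusted p 0.00883), and a second (Cla97C09G172860) rose by 1.46. The activator of Hsp90 ATPase (Cla97C03G061920) rose by 0.67 and a fes1-like nucleotide exchange factor of Hsp70 (Cla97C04G074710) by 0.84. Small heat shock proteins were highest in replicate 1 at 42 DAP, a class IV gene (Cla97C10G191220) at 39.86 TPM there against 8.75 and 11.05 TPM in replicates 2 and 3. A pair of class I genes (Cla97C07G132180 and Cla97C07G132310) listed the same values in 4 of the 6 libraries, such as 6.86, 1.49 and 1.91 TPM at 34 DAP, and differed in replicates 1 and 2 at 42 DAP (50.38 against 115.59 and 25.92 against 15.86 TPM). Whether they share reads was not tested, so their single levels are uncertain. Without clnor 42 DAP replicate 1 the list had 1 called member, without clnor 34 DAP replicate 3 it had 0, and without clnor 34 DAP replicate 2 it had 13. Of those 13 of 205 genes, 12 were higher and 1 lower, against 5.23% of all genes called in that fit.

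NAC transcription factors, the family of tomato NOR, had 4 of 46 higher and 0 lower (8.7%). NAC domain-containing protein 67 (Cla97C02G036810) rose from 44.14, 27.45 and 24.74 TPM to 171.02, 99.35 and 99.16 TPM (1.9 ± 0.4, limma adjusted p 0.0145). NAC domain-containing protein 79-like (Cla97C04G071760) went from 15.68, 15.41 and 9.16 TPM to 74.98, 49.2 and 130.98 TPM (2.5 ± 0.55, limma adjusted p 0.0178). Both were clear of overlap. NAC domain-containing protein 62 (Cla97C07G136450) also rose, by 0.84, but its replicates 2 were alike, at 114.01 TPM at 34 DAP and 113.09 TPM at 42 DAP. A described no apical meristem (NAM) protein (Cla97C03G063540) went the other way without passing, with 26.34, 3.87 and 36.26 TPM at 34 DAP and 0 in the 3 libraries at 42 DAP (limma adjusted p 0.0751). Without clnor 34 DAP replicate 3, or without clnor 42 DAP replicate 1, 0 NAC genes were called.

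The other regulator lists had 0 to 3 called members each. In the MYB and bHLH list 2 of 70 rose and 1 fell, led by a MYB gene (Cla97C11G211730) at 0, 2.4 and 0.45 TPM and then 6.26, 8.23 and 4.31 TPM (2.06 ± 0.34, limma adjusted p 0.00381). Ethylene-responsive transcription factor 13 (Cla97C08G145370) was the 1 called of 71 AP2/ERF genes, with 0.52 to 3.8 TPM at 34 DAP and 9.26 to 18.75 TPM at 42 DAP. Of 43 WRKY genes 1 rose, the WRKY 53 gene above. In the MADS-box list, whose members include ripening regulators of other fruits, 0 of 23 were called by limma, 4 had an unadjusted p below 0.05, and the median change was -0.3. Over all genes tested, 2765 of 14721 had such an unadjusted p. Without clnor 34 DAP replicate 2 limma called 1 of the 23 MADS-box genes, lower, against 5.23% of all genes in that fit.

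Carotenoid synthesis genes had 3 of 34 higher and 0 lower (8.82%, median 0.19), none of them among the steps from phytoene to lycopene that colour red flesh. A 1-deoxy-D-xylulose 5-phosphate synthase gene (Cla97C06G115040), the entry enzyme of the plastid isoprenoid route, rose from 299.32, 288.32 and 281.1 TPM to 575.35, 422.58 and 584.4 TPM (0.85 ± 0.18, limma adjusted p 0.0136). Zeaxanthin epoxidase (Cla97C02G038200), which makes violaxanthin, rose from 84.39, 74.7 and 67.99 TPM to 162.13, 116.4 and 127.37 TPM (0.82 ± 0.19, limma adjusted p 0.0211). A lycopene beta/epsilon cyclase gene (Cla97C02G028550), of the enzymes that use lycopene up, rose from 1.23, 2.26 and 0.95 TPM to 4.53, 4.33 and 4.28 TPM (1.15 ± 0.22, limma adjusted p 0.00824). The ages did not overlap in these 3 genes, and without clnor 34 DAP replicate 3 none of them was called.

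Photosynthesis and chloroplast genes had 1 of 84 higher, the Rubisco small chain, and 1 lower, a plastocyanin-like domain gene (Cla97C09G178900) that fell from 3.14, 4.85 and 5.35 TPM to 0.64, 0.35 and 0.67 TPM. That is 2.38%, near the share over all genes, though the median change of the list was 0.39. Their summed level was 4250, 7360 and 4630 TPM at 34 DAP and 8930, 7550 and 7320 TPM at 42 DAP, so that replicate 2 at 34 DAP lay within the range of the older fruits. Without that library 9 members were called, all 9 of them higher, against 5.23% of all genes in that fit. The plastocyanin-like domain gene was not called there (limma adjusted p 0.053).

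Cell wall loosening genes had 2 of 88 higher and 2 lower, all 4 of them pectinesterases. Pectinesterase Cla97C09G168010 rose from 22.65, 13.51 and 13.99 TPM to 93.62, 56.93 and 106.8 TPM (2.28 ± 0.43, limma adjusted p 0.00774). Pectinesterase Cla97C07G141130 rose from 33.76, 32.58 and 19.15 TPM to 289.34, 81.46 and 114.4 TPM (2.29 ± 0.53, limma adjusted p 0.0218). The falls were the pectinesterase Cla97C09G163490 described above and Cla97C11G220530, with 8.15 to 14.88 TPM at 34 DAP and 2.96 to 4.1 TPM at 42 DAP. Members of one enzyme family thus changed in opposite directions, without overlap between ages in any of the 4. In wall synthesis and structure 1 of 84 was called, a leucine-rich repeat extensin-like gene (Cla97C05G093250) that rose to 2.57 to 5.53 TPM.

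Class III peroxidases had 0 of 20 higher and 2 lower, the 2 described above (10%). Redox genes had 5 of 145 higher and 1 lower (4.14%). Of these, 2-cys peroxiredoxin (Cla97C10G201510), which removes hydrogen peroxide in plastids, rose from 216.83, 151.35 and 163.25 TPM to 301.71, 280.18 and 262.83 TPM (0.68, limma adjusted p 0.0457). A thioredoxin (Cla97C08G157590) rose from 24.23, 18.69 and 7.28 TPM to 65.4, 56.72 and 43.45 TPM, while the thioredoxin Cla97C05G106810 fell. Defence genes had 2 of 80 higher, both glucan endo-1,3-beta-glucosidases (Cla97C07G131550 and Cla97C03G052420), and 2 lower, a thaumatin-like gene (Cla97C10G188000) and a Bowman-Birk trypsin inhibitor (Cla97C08G148130). The inhibitor stood at 481.58, 341.88 and 369.6 TPM and then at 213.21, 181.13 and 255.96 TPM (-0.87 ± 0.22, limma adjusted p 0.0328).

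Among hormone genes, auxin had the most calls, with 3 of 83 higher and 2 lower (6.02%). The GH3.3 amido synthetase gene (Cla97C01G016350), whose Arabidopsis namesake joins auxin to amino acids, rose from 22.34, 93.77 and 30.81 TPM to 179.59, 142.04 and 301.6 TPM (2.27 ± 0.44, limma adjusted p 0.00969). Replicate 2 was the highest of the younger libraries and the lowest of the older ones. An auxin-responsive family gene (Cla97C04G069240) rose from 12, 17.11 and 8.3 TPM to 56.66, 66.03 and 78.8 TPM. In the ethylene list 1 of 23 was called, a gene named after REVERSION-TO-ETHYLENE SENSITIVITY1 (Cla97C05G099100), whose Arabidopsis namesake promotes an ethylene receptor, at 32.67, 10.55 and 16.78 TPM and then 64.15, 54.2 and 52.6 TPM. ACC oxidase 1 (Cla97C09G173910), of the enzymes that make ethylene, read 198.94, 173.4 and 187 TPM and then 511.17, 382.31 and 748.52 TPM without passing the test (1.5 ± 0.49, limma adjusted p 0.0977). In the jasmonate list 1 of 28 fell, a Tify gene (Cla97C09G163190). No abscisic acid gene (0 of 21) and no gibberellin or cytokinin gene (0 of 70) was called by limma, while 2 and 16 of them had an unadjusted p below 0.05. Over all genes tested, 2765 of 14721 had such an unadjusted p. The abscisic acid list as first written, which also held protein phosphatases 2C, had 1 of 49 called, lower. Of the 70 gibberellin and cytokinin genes 3 were called without clnor 34 DAP replicate 2, all lower, against 5.23% of all genes in that fit.

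Sugar lists had 1 of 31 transport genes called (3.23%) and 2 of 68 metabolism genes (2.94%), against 2.49% of all genes, and 9 and 18 had an unadjusted p below 0.05. Over all genes tested, 2765 of 14721 had such an unadjusted p. The transport genes summed to 693, 624 and 649 TPM at 34 DAP and to 516, 438 and 511 TPM at 42 DAP, without overlap, and the sum was not tested. Without clnor 34 DAP replicate 2, limma called 5 of these 31 genes, 3 up and 2 down, against 5.23% of all genes in that fit. The 1 called transport gene was a bidirectional SWEET transporter (Cla97C01G000640) that fell from 36.48, 20.38 and 33.17 TPM to 9.62, 7.71 and 7.92 TPM (-1.68 ± 0.42, limma adjusted p 0.0344). Of 68 sugar metabolism genes 1 rose and 1 fell. The rise was a fructokinase (Cla97C06G110160), which phosphorylates fructose, from 12.33, 19.24 and 15.51 TPM to 45.03, 48.44 and 76.96 TPM (1.77 ± 0.37, limma adjusted p 0.0135). Beta-amylase (Cla97C02G028050), which breaks down starch, fell from 5.82, 5.84 and 5.87 TPM to 3.53, 3.5 and 1.67 TPM (-0.85 ± 0.21, limma adjusted p 0.0345).

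Cell cycle and histone genes had 3 of 133 higher and 0 lower (2.26%, against 2.49% of all genes). This split was 4 higher and 4 lower under quantile normalization and also without clnor 34 DAP replicate 2, and 5 higher and 8 lower without both replicates numbered 2, a setting added after the data were seen. Over all genes, quantile normalization called 244 higher and 240 lower, and the fit without clnor 34 DAP replicate 2 called 480 and 290. The 3 called members included cyclin-D1-1-like (Cla97C09G182110) at 93.24, 80.63 and 90.42 TPM and then 179.84, 143.61 and 210 TPM. Phenylpropanoid genes had 2 of 69 higher, including 4-coumarate--CoA ligase-like 1 (Cla97C11G219500) at 6.84 to 12.82 TPM and then 23.27 to 25.8 TPM. Of 304 ribosomal protein genes 2 rose (0.658%), and of 126 protease and autophagy genes 1 fell. Without both replicates numbered 2, the ribosomal list had 4 called higher and 25 lower, and the protease list 5 higher and 10 lower. In that fit 1479 of all 14721 genes tested were called, 993 higher and 486 lower. Citrulline and arginine genes (0 of 27), aroma and fermentation genes (0 of 19) and aquaporins (0 of 19) had no calls in limma's test, with 3, 2 and 7 at an unadjusted p below 0.05. Over all genes tested, 2765 of 14721 had such an unadjusted p. Without clnor 34 DAP replicate 2, limma called 3 of 19 aquaporins, all higher, although the list median with all libraries was -0.4. In the same fit 1 of 27 citrulline genes was called lower and 1 of 19 aroma genes higher, against 5.23% of all genes.

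**Figure D3:**
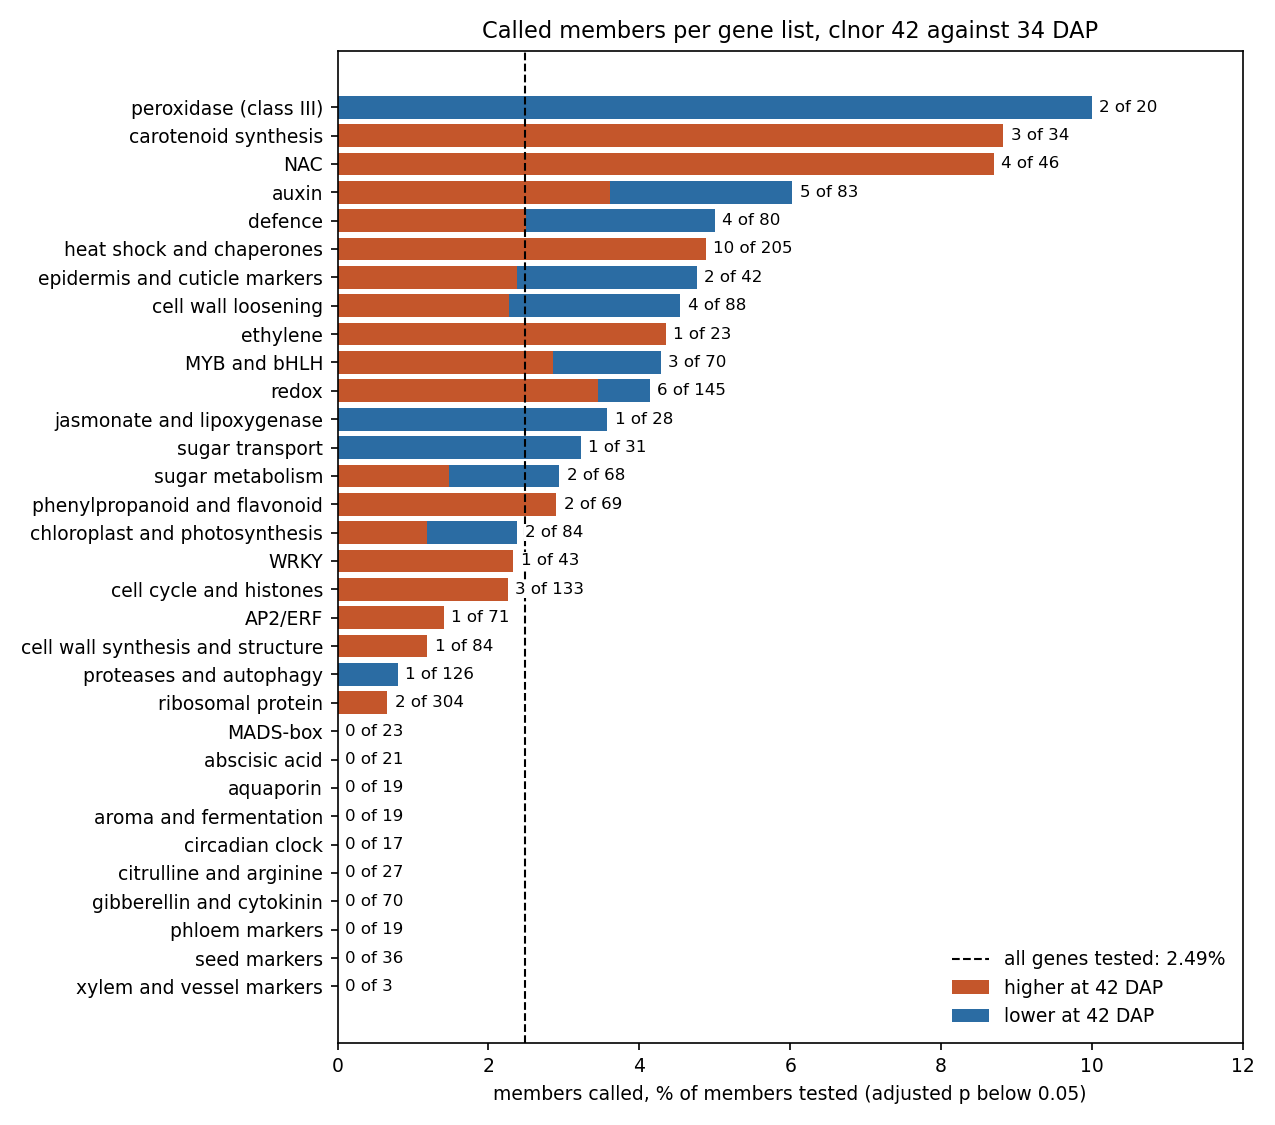
Percent of the tested members of each gene list that were called, split into higher (orange) and lower (blue) at 42 DAP, with the number called of the number tested beside each bar and a dashed line at the 2.49% over all genes. Heat shock, NAC and carotenoid members that were called were all higher, called class III peroxidases were lower, and 10 lists had 0 called.

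In a set of genes clnor 34 DAP replicate 2 looked like the older fruits, and their calls turned on it. Thionin-like protein 2 (Cla97C09G164380), of a family of small antimicrobial peptides, read 0.05, 1955.97 and 2.68 TPM at 34 DAP and 786.7, 434.93 and 1887.93 TPM at 42 DAP. Replicate 2 held its highest level of the 6 libraries while the other younger libraries were near 0. With all libraries the change was 5.46 ± 1.64 (limma adjusted p 0.0743), and without replicate 2 it was 8.78 (limma adjusted p 8.4e-05). An rRNA N-glycosidase gene (Cla97C05G092040), of the enzymes that inactivate ribosomes, behaved alike, with 0, 362.06 and 0.09 TPM and then 49.7, 68.45 and 313.38 TPM.

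The same shape was seen in wall genes. The gene of mannan endo-1,4-beta-mannosidase 1-like, an enzyme that cuts mannan (Cla97C08G145130), read 1.1, 215.88 and 10.12 TPM at 34 DAP and 110.02, 38.16 and 114.46 TPM at 42 DAP. Arabinogalactan protein 15 (Cla97C08G160580) was listed at 0 in replicates 1 and 3 at 34 DAP and read 71.47 TPM in replicate 2, against 14.42 to 26.71 TPM at 42 DAP. Both passed the test without replicate 2 (limma adjusted p 0.0269 and 0.0477) and not with it (0.318 and 0.371).

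The reverse was seen in the 14 kDa proline-rich protein DC2.15 gene (Cla97C08G156820), at 296.14, 26.44 and 183.42 TPM at 34 DAP and 9.12, 21.86 and 7.96 TPM at 42 DAP. Here replicate 2 was the lowest younger library, close to the highest older one (limma adjusted p 0.0516 with it and 0.01 without). In gibberellin-regulated protein 4-like (Cla97C10G197900), which read 56.06, 0.69 and 23.09 TPM and then 0, 2.43 and 0.82 TPM, replicate 2 lay inside the older range. Without this library 480 genes were called higher and 290 lower, and of those 770 the omitted library lay nearer the 42 DAP mean in 426 (55.3%). In the 367 genes called with all libraries it lay nearer the other 34 DAP libraries in 324, a count that the call itself favours. The same library had the highest phloem marker sum of the 6, and the part of this in these genes was not tested.

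**Figure D4:**
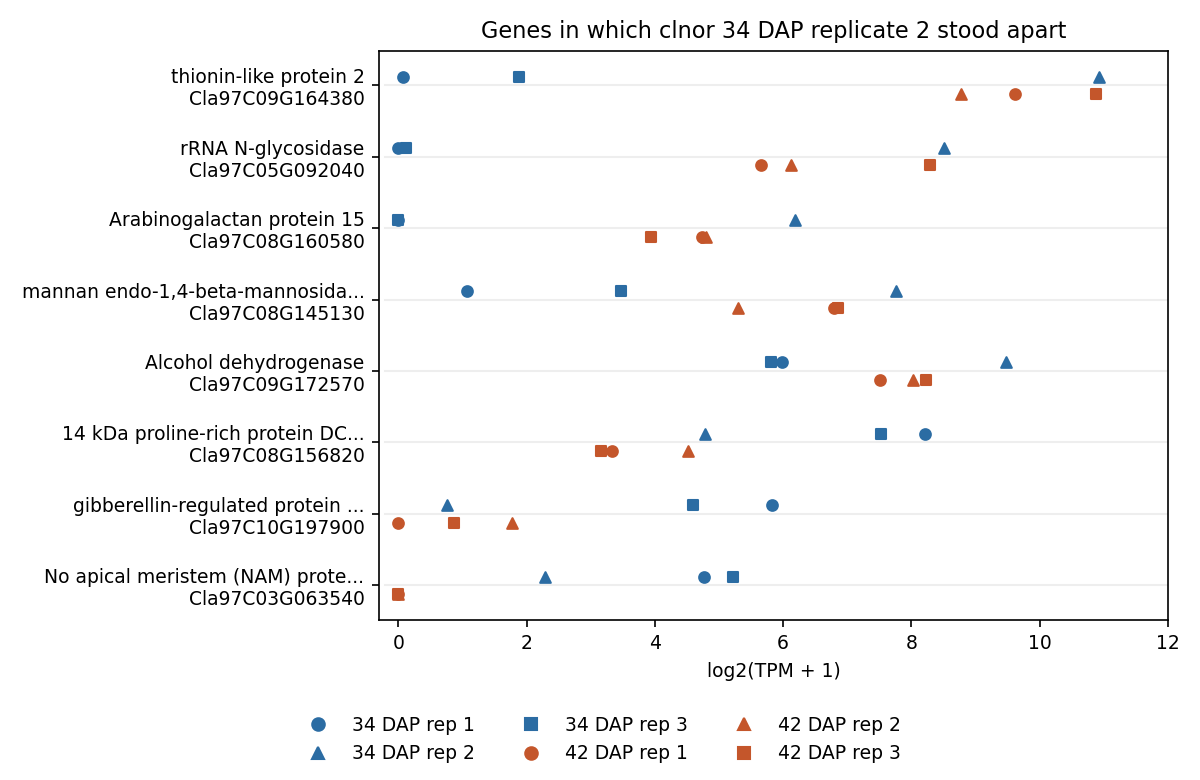
Levels in log2(TPM + 1) of 8 genes picked because clnor 34 DAP replicate 2 (blue triangle) stood apart from the other 34 DAP libraries, with 34 DAP in blue and 42 DAP in orange. In the upper 5 rows the blue triangle lies among or above the 42 DAP libraries, and in the lower 3 rows it lies below the other 34 DAP libraries.

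The change from 34 to 42 DAP was measured in WT fruits by separate libraries. In WT 547 of the same genes were called (3.72%), 443 higher and 104 lower, with a median change over all genes of 0.162. Of the 217 genes that rose in clnor, 174 also had a positive change in WT, where 68.5% of all genes tested did. Of the 150 that fell in clnor, 84 had a negative change in WT, where 68.5% of all genes tested had a positive one. Genes called in both genotypes numbered 36, or 9.81% of the clnor calls and 6.58% of the WT calls, with 30 higher in both, 4 lower in both and 2 in opposite directions.

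The desaturase gene (Cla97C08G149220) was among the 30, with WT means of 74.6 TPM at 34 DAP and 478 TPM at 42 DAP (2.69, limma adjusted p 0.0267). The plant cysteine oxidase 2 gene (Cla97C10G197780) was another, with WT means of 29.4 and 245 TPM (3.02). The universal stress protein gene (Cla97C02G040830) rose in WT from 9.32 to 78 TPM (2.95) and NAC domain-containing protein 79-like (Cla97C04G071760) from 4.82 to 31.7 TPM (2.6). In these 4 genes the difference between the genotypes' steps was not called by limma's test of that difference.

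Further genes of the 36 are named after their values were seen. A hypoxia-responsive family gene (Cla97C03G067710) read 117.88, 76.1 and 83.13 TPM in clnor at 34 DAP and 204.83, 273.24 and 304.74 TPM at 42 DAP (1.49 ± 0.29, limma adjusted p 0.00969), and its WT means were 283 and 630 TPM. An ACT domain gene (Cla97C06G111280), of a fold that often binds amino acids, fell from 8.99, 15.88 and 8.41 TPM to 3.23, 1.73 and 2.35 TPM, and in WT from a mean of 7.5 to 3.1 TPM. The 2 genes of opposite direction were a fructose-bisphosphate aldolase (Cla97C10G202380), an enzyme of glycolysis, and a Kelch repeat gene (Cla97C03G060730). The aldolase rose in clnor from 503.37, 935.52 and 363.63 TPM to 1142.23, 1196.72 and 1198.64 TPM and fell in WT from a mean of 2530 to 1110 TPM. The Kelch repeat gene rose in clnor from 4.88, 4.6 and 2.8 TPM to 7.57, 9.94 and 10.77 TPM and fell in WT from a mean of 22.7 to 9.24 TPM. In both the step difference was called.

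That test, of the clnor change minus the WT change, called 65 genes (0.442% of those tested), 31 positive and 34 negative. Of these, 26 were also called in clnor and 35 in WT. The number fell to 16 without WT 42 DAP replicate 3, to 19 without WT 34 DAP replicate 3 and to 25 without clnor 34 DAP replicate 3, and it was 23 to 64 without each of the other 9 libraries. The Rubisco small chain gene (Cla97C05G104530) was called positive, with WT means of 1800 TPM at 34 DAP and 879 TPM at 42 DAP, a change of -1.07 that WT alone did not call. Its step difference of 4.17 ± 0.68 (limma adjusted p 0.00485) stayed called in each of 12 fits that left out 1 library.

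Alcohol dehydrogenase genes, which make ethanol from acetaldehyde, had large positive step differences, with falls in WT. Alcohol dehydrogenase Cla97C09G172570 fell in WT from 1336.82, 1170.05 and 1402.17 TPM to 22.41, 8.34 and 14.21 TPM. In clnor it read 62.08, 708.52 and 55.44 TPM at 34 DAP and 182, 259.62 and 300.44 TPM at 42 DAP, so that the ages overlapped through replicate 2 (0.84 ± 0.62, limma adjusted p 0.498). Without clnor 34 DAP replicate 2 its clnor change was 2.03 and was called (limma adjusted p 0.0111). With all libraries the step difference was 7.28 (limma adjusted p 0.000188). The neighbouring Cla97C09G172580 stood in WT at 729.58 to 1236.18 TPM and then at 44.11 to 82.89 TPM, and read 31.75 to 200.28 TPM over the 6 clnor libraries (5.15, limma adjusted p 0.00428).

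An early nodulin-93-like gene (Cla97C11G209360) followed the same course, with WT libraries at 1845.83 to 3696.09 TPM and then 26.57 to 60.25 TPM, against 154.14 to 749.04 TPM in clnor (5.49, limma adjusted p 0.00978). Both alcohol dehydrogenase genes and this one stayed called in each of the 12 fits. A hypoxia-responsive family gene (Cla97C11G212740) stood in WT at 340.84 to 592.75 TPM and then at 4.06 to 18.62 TPM, and at 1.58 to 30.6 TPM in clnor (6.28, limma adjusted p 0.0375). It was called in 3 of the 12 fits.

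The largest negative step difference among the genes named here was of a gene that rose in WT. A lipid-transfer/2S albumin superfamily gene (Cla97C11G222920) had 1.31 to 12.86 TPM in WT at 34 DAP and 37.62 to 142.62 TPM at 42 DAP, while in clnor it read 11.24, 10.24 and 19.26 TPM and then 4.96, 4.6 and 2.39 TPM (-5.02, limma adjusted p 0.0375). Its clnor change alone was not called.

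**Figure D5:**
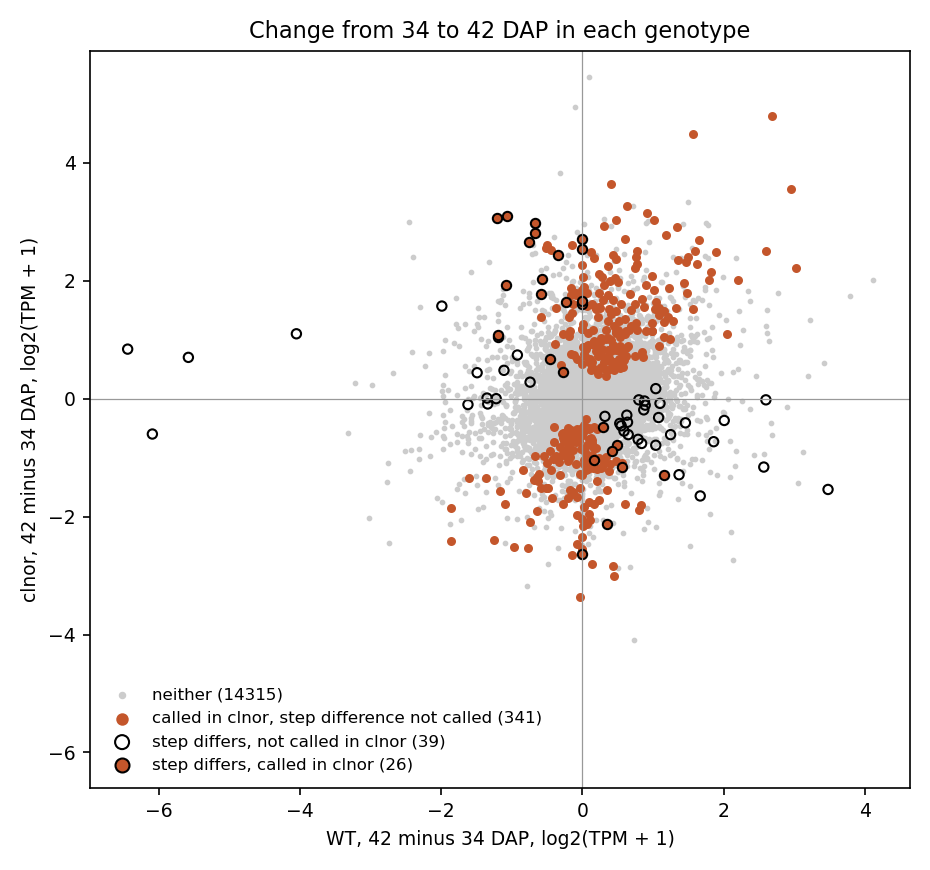
Change from 34 to 42 DAP of the 14721 genes tested, in log2(TPM + 1), in WT (x axis) and in clnor (y axis). Orange points are the 341 genes called in clnor whose step difference was not called, black rings the 39 with a called step difference alone and ringed orange points the 26 with both, and the 4 rings farthest to the left are the 2 alcohol dehydrogenase, the early nodulin-93-like and the hypoxia-responsive family genes.

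Along the clnor time course, 169 of the 217 genes that rose had their highest mean of 5 ages at 42 DAP, and 120 of the 150 that fell had their lowest there. This uses the 42 DAP libraries that chose the genes, and is given as a description. The share of all genes tested with their highest or lowest mean at 42 DAP was not counted, so these counts have no background.

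The most abundant transcripts of the 6 libraries were not called. Abscisic stress-ripening protein 1 (Cla97C08G146160), a small protein of ripening and drought-stressed tissue, read 37002.22, 29716.94 and 42491.66 TPM at 34 DAP and 22692.85, 37223.23 and 24962.95 TPM at 42 DAP (-0.38 ± 0.24, limma adjusted p 0.416). The ages overlapped, with replicate 2 reading with the other age in each group. A translationally-controlled tumor protein gene (Cla97C05G087680) read 17140.72, 16196 and 24593.33 TPM and then 11095.07, 14306.65 and 9348.95 TPM (-0.73 ± 0.36, limma adjusted p 0.272). Defensin-like protein 6 (Cla97C01G007340), an antimicrobial peptide, read 6078.15 to 21395.35 TPM at 34 DAP and 7298.78 to 8465.32 TPM at 42 DAP, and its direction turned under quantile normalization.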

How the data were processed

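RNA of watermelon flesh was sequenced in 30 libraries, 3 in each of 10 groups. Trizol extraction, RNeasy clean-up with DNase I and TruSeq library construction were used, per the labels' protocols. TopHat2, HISAT2, StringTie and Cufflinks were used, per the submitters' processing notes, and the sources used here give neither their versions nor the build. The authors deposited 1 table of TPM for 22596 genes with descriptions. TPM keeps no depth, so no counting error can be given.

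Values were tested as log2(TPM + 1), with a pseudocount of 1, a scale that understates changes of low genes. One linear model over the 10 groups was fitted to the 14721 genes with limma 3.58.1 in R 4.3.3 (20 residual degrees of freedom, eBayes with trend and robust set), so the spread is shared by all groups. Tests were two-sided, with Benjamini-Hochberg adjustment over those genes and a threshold of 0.05. The method was tested on simulated data whose noise was drawn independently for each gene and library. A shift shared by the genes of a library was not simulated, so that test does not bear on libraries lying between the ages.

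Gene lists are search words in descriptions, with accidental matches removed after the descriptions were read. As first written, 5 lists had other calls: heat shock 12 of 216, abscisic acid 1 of 49, AP2/ERF 2 of 73, cell cycle 3 higher and 1 lower of 154, and MYB and bHLH 2 higher and 2 lower of 83. The members and lists were chosen with earlier results of these data known. Named genes are the 12 largest rises and falls among called, described genes without overlap between ages and with a mean of at least 5 TPM, the 6 largest without clnor 34 DAP replicate 2, the 4 largest step differences each way, the 3 of smallest p per list and the 6 of highest mean. Genes outside this rule were chosen after their values were seen: plant cysteine oxidase 2, aspartate aminotransferase A, the cupredoxin-like gene, the undescribed genes, 4 genes called in both genotypes and further called members of the lists. Gene IDs and names are as the table gives them, and 1 gene that the rule took is not reported here. Alternatives were other pseudocounts, filters, scalings, fits over fewer groups, a replicate block, and each library left out.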

Additional observations from a re-analysis of the deposited data

Results flagged for a closer look

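Among the named genes reported here, 13 were marked because limma's test of the difference between the clnor and WT steps from 34 to 42 DAP was called. The difference is the clnor change minus the WT change on the log2(TPM + 1) scale. It was 7.28 and 5.15 for alcohol dehydrogenase Cla97C09G172570 and Cla97C09G172580, 5.49 for early nodulin-93-like Cla97C11G209360 and 4.17 for Rubisco small chain Cla97C05G104530, and these 4 stayed called in each of the 12 fits that left out 1 of the clnor or WT libraries at 34 and 42 DAP.

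The other 9 were called in 1 to 3 of the 12. The differences were 6.28 for hypoxia-responsive family gene Cla97C11G212740, 4.27 for Cla97C10G202550 and 3.65 and 3.48 for the pair of class I heat shock genes Cla97C07G132310 and Cla97C07G132180, which list the same values in several libraries. They were 2.36 for glutathione S-transferase U8-like Cla97C04G074130 and 1.66 for replication factor C subunit 3-like Cla97C05G083150. Negative values were -5.02 for lipid-transfer superfamily gene Cla97C11G222920, -3.32 for WAT1-related Cla97C01G001350 and -2.67 for nuclear transcription factor Y subunit C-4 Cla97C08G152900. None of the 13 turned direction under the alternatives run.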

How the results depend on the processing

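The 367 calls of clnor 42 against 34 DAP ranged from 26 to 770 when 1 library was left out, with 26 without clnor 34 DAP replicate 3 and 770 without its replicate 2. These calls numbered 16 in a fit of the 2 groups alone, 58 in a fit of the 5 clnor groups, 230 with a change of at least 2-fold, and 1479 (993 higher, 486 lower) without both replicates numbered 2, which was chosen after seeing the data. Pseudocounts, filters and scalings gave 271 to 484 calls. The 547 WT calls ranged from 80 to 529 with 1 WT library left out and were 119 (48 higher, 71 lower) under quantile normalization. The 65 step differences ranged from 16 to 64 with 1 library left out and were 188 in a fit of the 4 groups alone and 73 without both clnor replicates numbered 2. They were 48 (30 positive, 18 negative) under upper-quartile scaling and 44 (33 positive, 11 negative) under quantile normalization, which moved the median difference over all genes from -0.146 to -0.03. Deviations of same-numbered clnor libraries at 34 and 42 DAP correlated at -0.11, -0.38 and -0.02. With 3 libraries per group, these values cannot show whether replicate numbers mark shared plants or batches. A fit with the replicate block gave 325 calls in clnor, 456 in WT and 39 step differences. Of 64 named genes that were called, 60 stayed called under quantile normalization, 63 under upper-quartile scaling, 53 with a pseudocount of 0.1, 57 without clnor 34 DAP replicate 2, 9 without its replicate 3 and 5 in the fit of 2 groups, and 0 turned direction. Uncalled genes of high level turned: Cla97C08G146160 came to 0, Cla97C01G007340 to 0.07 and Cla97C11G211170 to -0.06 under quantile normalization, and Cla97C05G103700 came to -0.02 under upper-quartile scaling, -0.14 under quantile normalization and -0.12 to 0.14 with 1 library left out (-0.12 without clnor 34 DAP replicate 1). The causes were not tested. Depth is unknown, which limits what can be said of low values.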
